A study of Mus musculus with 4 samples.

Results

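The genes followed here are 10 of the MHC class I pathway, namely those of the 27998 genes in the count files whose symbol is *H2-K1*, *H2-D1*, *B2m*, *Tap1*, *Tap2*, *Tapbp*, *Psmb8*, *Psmb9*, *Psmb10* or *Nlrc5*. They were measured by single-cell RNA sequencing of the 3′ ends of transcripts, in which each molecule is counted once by its unique molecular identifier (UMI), in GP33-specific CD8+ T cells sorted from the spleen on day 8 of infection with the Armstrong strain of lymphocytic choriomeningitis virus (LCMV). The cells came from 2 mixed bone marrow chimeras on the C57BL/6 background, in which WT marrow carrying CD45.1 (from B6.SJL donors) and *Bcl3*-/- marrow carrying CD45.2 had been transferred together into sub-lethally irradiated *Rag1*-/- hosts. Each chimera gave 1 WT and 1 *Bcl3*-/- library, called here WT1 and KO1 (chimera 1) and WT2 and KO2 (chimera 2). The libraries of one chimera thus share the host and the infection, but the *Bcl3* genotype and the donor strain with its CD45 allele change together and cannot be told apart. No age of the animals was found in the labels or methods.

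MHC class I molecules show peptides from inside a cell to CD8+ T cells, and T cells carry them as most nucleated cells do. H2-K1 and H2-D1 are heavy chains, and B2m is the light chain they need to reach the surface. Peptides are cut by the proteasome, whose immunoproteasome form holds the catalytic subunits Psmb8, Psmb9 and Psmb10, are pumped into the endoplasmic reticulum by the Tap1-Tap2 transporter, and are loaded with the help of tapasin (Tapbp). Nlrc5 is a transactivator of class I genes, and interferons raise most of the pathway. Bcl-3, the protein absent from the *Bcl3*-/- cells, is an atypical IκB protein that binds the NF-κB subunits p50 and p52 and regulates NF-κB target genes.

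Most members lie in or beside the MHC on chromosome 17. On the mouse build GRCm38, *Psmb9*, *Tap1*, *Psmb8* and *Tap2* stand together within 34.3 kb, from base 34181987 to base 34216321 of chromosome 17, with *Psmb9* on the minus strand and the others on the plus strand. *Tap1* and *Psmb9* start back to back, with 225 bases between their RefSeq starts. *Tapbp* (chr17:33915899-33929292, plus strand), *H2-K1* (chr17:33996017-34000347, minus strand) and *H2-D1* (chr17:35262730-35267499, plus strand) lie on the same chromosome. *B2m* is at chr2:122147686-122153083 (plus strand), *Psmb10* at chr8:105935735-105938444 (minus strand) and *Nlrc5* at chr8:94434356-94527272 (plus strand).

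The bases before the RefSeq starts (GRCm38.p6) were searched because Bcl-3 acts through NF-κB sites and the pathway responds to interferon. Promoters were listed for 8 members, all but *Tap2* and *Nlrc5*, which were not searched. On either strand, the NF-κB consensus was found in the 250 bases before the start of *H2-K1*, *H2-D1* and *B2m*, and in 7.25% of all 32851 promoters listed. The interferon-stimulated response element, searched as TTTC, any 2 bases and TTTC again, was found in *B2m* alone among these 8 and in 2.98% of all promoters. Variants of this pattern were not searched, so the lack of a match does not show that a promoter lacks an interferon element. The stretches of 30 bases that open at the first match are shown to let the heavy chains be compared, on the strand of the gene, with matches in capitals.
H2-K1, chr17:34000429-34000458: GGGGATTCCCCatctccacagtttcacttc
H2-D1, chr17:35262923-35262952: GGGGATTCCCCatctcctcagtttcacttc
B2m, chr2:122147548-122147577: GAAACTGAAAatgGGAAAGTCCCtttgtaa
The *H2-K1* and *H2-D1* stretches differ in 1 base, A18T, counted from 1 at the 5′ end of the *H2-K1* stretch. In both, 2 matches that start 1 base apart overlap. The RefSeq starts are not always the ends of the gene spans given above, and the *H2-D1* stretch lies inside the span given for that gene. In *B2m* the first capitals are the interferon element and the second the NF-κB match. A match is a description of letters, not evidence of binding.

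The libraries held 20192770 UMIs in 4941 cells (WT1), 19217181 UMIs in 8092 cells (WT2), 21813076 UMIs in 5366 cells (KO1) and 21525963 UMIs in 6494 cells (KO2), after cells with under 500 genes or over 10% mitochondrial UMIs were left out. The 10 members together took 1.49%, 1.60%, 1.35% and 1.51% of these UMIs, in the same order. Cells of WT2 were the shallowest, with a median of 2019 UMIs against 3571 in WT1. Pairs of libraries shared 37 to 63 cell barcodes, where 36.0 to 71.3 would be shared if barcodes were independent. Barcodes of at most 50 UMIs, which hold free RNA, also held class I transcripts. In them *H2-K1* was at 3100 and 3448 CPM (UMIs scaled to one common library total) in the WT libraries and 2861 and 3053 in the *Bcl3*-/- libraries (chimera 1 first in each pair, and likewise in what follows), and *Nlrc5* was at 67.9, 73.2, 52.1 and 65.6 CPM, above its level in the cells of every library. How much of a cell's class I counts is free RNA was not tested.

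The sort label was checked on *Cd8b1*, the CD8 beta chain, which was the most abundant gene of the CD8 T cell list in each of the 4 libraries (1907, 1717, 2033 and 2039 CPM in WT1, WT2, KO1 and KO2). *Bcl3* itself had 33.2 and 108 CPM in the WT libraries and 27.6 and 86.6 in the *Bcl3*-/- libraries. The 3′ tags do not check the genotype, since which exons were deleted is not stated.

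The genotypes were compared first on UMIs summed over all cells of a library, with values scaled by edgeR's TMM factors. Tapasin, *Tap1*, the immunoproteasome subunits *Psmb8* and *Psmb10*, and *H2-K1* were lower in both *Bcl3*-/- libraries than in both WT libraries, and *Tap2* was higher in both. *H2-D1*, *Psmb9* and *Nlrc5* overlapped between genotypes. Without a block, edgeR's quasi-likelihood F-test (Benjamini-Hochberg adjusted p under 0.05) called 0 of the 10 members, in a comparison that called 42 of 11566 genes, or 0.363%. An unadjusted p under 0.05 was found for 4 members and for 15.6% of genes. With the chimera as a replicate block, 5 members were called, 4 lower and *Tap2* higher, where 1116 genes or 9.65% were called. DESeq2 with no block called 2 members, *Tapbp* and *Tap2*, where it called 1.81% of genes.

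Among the class I molecules, *H2-K1* was at 2571 and 3162 CPM in the WT libraries and 2235 and 2353 in the *Bcl3*-/- libraries. Both *Bcl3*-/- libraries lay below both WT libraries, and WT2 stood highest. The log2 fold change (*Bcl3*-/- relative to WT, ± its standard error) came to −0.32 ± 0.15, with an adjusted p of 0.351 from edgeR with no block and 0.0280 with the block. It was −0.17 without WT2 and −0.46 without WT1. *H2-D1*, the other classical heavy chain, was at 3960, 4251, 3828 and 4216 CPM in WT1, WT2, KO1 and KO2. Its groups overlapped, and the difference of −0.03 ± 0.14 was within the spread between libraries (adjusted p = 0.948, edgeR, no block). *B2m* was at 5701, 5286, 5200 and 5236 CPM in the same order, a log2 fold change of −0.07 ± 0.14 (adjusted p = 0.852, edgeR, no block). Its *Bcl3*-/- libraries were the lower ones, but WT2 exceeded KO2 by less than WT1 exceeded WT2.

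*Tap1* and *Tap2*, the chains of the peptide transporter, went opposite ways. *Tap1* was at 295 and 330 CPM in the WT libraries and 241 and 261 in the *Bcl3*-/- libraries, lower in *Bcl3*-/- in both chimeras, with a log2 fold change of −0.32 ± 0.10 (adjusted p = 0.232 from edgeR with no block, 0.00803 with the block). *Tap2* was at 111 and 93.4 CPM in the WT libraries and 132 and 183 in the *Bcl3*-/- libraries. It was higher in *Bcl3*-/- in both chimeras, least in chimera 1 (log2 ratio 0.25) and most in chimera 2 (0.96). Its log2 fold change was 0.63 ± 0.16, with an adjusted p of 0.164 from edgeR with no block and 0.00534 with the block. Its size rested on single libraries: it was 0.84 without KO1 (adjusted p = 0.0176, edgeR, no block, where 1.48% of genes were called) and 0.37 without KO2, where it was not called. Tapasin (*Tapbp*), which holds empty class I molecules at the transporter, was at 317, 346, 248 and 264 CPM in WT1, WT2, KO1 and KO2. The *Bcl3*-/- libraries were lower by a log2 fold change of −0.37 ± 0.10, nearly alike in chimera 1 (−0.35) and chimera 2 (−0.39), with an adjusted p of 0.166 (edgeR, no block) and 0.00299 (block).

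Of the immunoproteasome subunits, *Psmb10* was at 424 and 450 CPM in the WT libraries and 357 and 339 in the *Bcl3*-/- libraries. Its groups did not overlap, and its log2 fold change was −0.33 ± 0.10 (adjusted p = 0.201 from edgeR with no block, 0.00898 with the block). *Psmb8* was at 1472, 1529, 1278 and 1259 CPM in WT1, WT2, KO1 and KO2, again without overlap, with a log2 fold change of −0.24 ± 0.11 (adjusted p = 0.351 with no block and 0.0515 with it, edgeR). *Psmb9* was at 367, 330, 329 and 338 CPM in the same order, with overlapping groups and a log2 fold change of −0.06 ± 0.10 (adjusted p = 0.806, edgeR, no block). *Psmb9* and *Tap1*, which start back to back, thus had log2 fold changes of −0.06 and −0.32. The difference between these genes was not tested.

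*Nlrc5*, the class I transactivator, was at 40.0 and 38.1 CPM in the WT libraries and 38.4 and 40.6 in the *Bcl3*-/- libraries. Its level differed between genotypes by less than between libraries of one genotype (log2 fold change 0.02 ± 0.09, adjusted p = 0.950, edgeR, no block). In all, 6 of 10 members had both *Bcl3*-/- libraries below both WT libraries, as did 23.1% of all genes tested, and 1 member had both above, as did 25.3%. The median log2 fold change was −0.16 over the members and 0.01 over all genes tested.

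**Figure D1:**
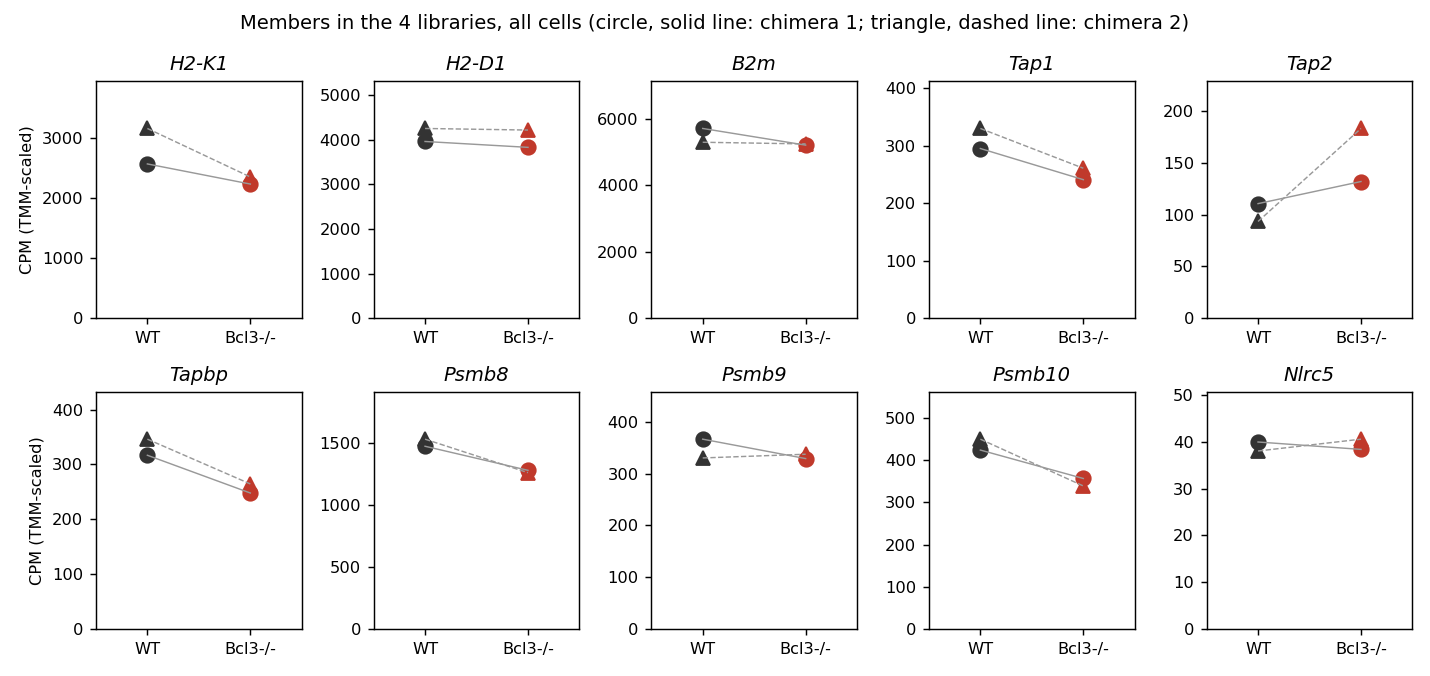
TMM-scaled CPM (y axis, linear, from 0) of each member in the 4 libraries, summed over all cells; the x axis gives the genotype, circles and solid lines are chimera 1, and triangles and dashed lines are chimera 2. *Tap2* is the only member in which both lines rise, from 111 to 132 CPM in chimera 1 and from 93.4 to 183 CPM in chimera 2.

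Each library was clustered on its own, with the members and their pathway kept out of the genes that made them. Clusters were named from lists of markers, giving interferon-stimulated clusters (*Isg15*, *Ifit1*, *Ifit3* and others), cycling clusters (*Birc5*, *Ccnb2*, *Mcm5* and others), terminal effector clusters (*Gzma*, *Cx3cr1*, *Zeb2*, *S1pr5*) and clusters with *Tcf7*, *Dapl1*, *Id3* and *Ccr7* among their leading genes, which carry genes of both memory precursor and naive T cells and are called *Tcf7*-*Ccr7* clusters. These last met both the memory precursor and the naive list in each library. In KO1 they were 122 cells, with *Cd4* among their 10 leading genes. The other T cell clusters met no list and are called unnamed; they held 52.2% to 59.9% of the cells of a library, and one of them was led by *Klrg1*, *Cx3cr1* and *Gzma* in WT1, by *Cx3cr1*, *Klrg1* and *Zeb2* in KO1 and another by *Tcf7*, *Il7r* and *Ltb* in KO1. B-like, macrophage-like, neutrophil-like and plasma-like clusters were also present. Terminal effector clusters held 5.26%, 11.7%, 14.4% and 17.5% of the cells of WT1, WT2, KO1 and KO2. That order did not hold with naming at 1.5-fold, where WT1 had the most, 24.8%, against 11.7% in WT2, 1125 of 5366 cells in KO1 and 17.5% in KO2. *Tcf7*-*Ccr7* clusters held 6.44%, 5.43%, 2.27% and 2.94% of the cells in the same order of libraries, and interferon-stimulated clusters 8.03%, 5.31%, 6.82% and 10.0%.

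Over the sum of the T cell clusters, which leaves out the clusters of other cell types, *Tap2* was again higher and *Tapbp*, *Tap1*, *Psmb10*, *H2-K1* and *Psmb8* lower, by about as much as over all cells. The log2 fold changes were −0.38 for *Tapbp*, −0.33 for *Tap1*, −0.33 for *Psmb10*, −0.32 for *H2-K1*, −0.24 for *Psmb8* and 0.63 for *Tap2*. No member was called with no block (0.27% of 11104 genes called, edgeR), where 4 had an unadjusted p under 0.05, as did 14% of genes, and DESeq2 called 2, with 1.55% of genes. In the same clusters 6 were called with the block, where 13.8% of genes were called. *Tap2* was higher, with an adjusted p of 1.07e-07 (edgeR, block). *Tapbp* (2.56e-05), *Tap1* (0.000305), *Psmb10* (0.000424), *H2-K1* (0.00219) and *Psmb8* (0.0162) were lower, by the same test. The block leaves little spread between libraries to each gene, so these p-values lean on spread pooled over genes. On leaving out a library, with no block, the log2 fold change of *Tap2* in these clusters ranged from 0.35 to 0.86. In these clusters 5 members had both *Bcl3*-/- libraries below both WT libraries, against 22.2% of genes tested, and 1 had both above, against 24.6%.

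The genotypes were then compared within each class of T cell clusters. In none of the 5 classes was a member called by edgeR with no block, where 0.368% (unnamed), 0.808% (terminal effector), 0.296% (*Tcf7*-*Ccr7*), 0.399% (cycling) and 0.171% (interferon-stimulated) of genes were called, and 5, 7, 4, 3 and 3 members had an unadjusted p under 0.05, as did 10.5%, 11.8%, 7.65%, 9.22% and 7.68% of genes. *Tap2* was called higher in every class with the block, with a log2 fold change of 0.55 in unnamed, 0.83 in terminal effector, 0.99 in *Tcf7*-*Ccr7*, 0.64 in cycling and 0.60 in interferon-stimulated clusters. *H2-K1* was called lower in 4 classes with the block, all but *Tcf7*-*Ccr7*, where its log2 fold change was −0.29 (adjusted p = 0.157, edgeR). The block called 6, 5, 1, 3 and 3 members in the unnamed, terminal effector, *Tcf7*-*Ccr7*, cycling and interferon-stimulated clusters, where it called 7.7%, 3.82%, 1.44%, 3.4% and 2.67% of genes. A test of whether the genotype difference itself differed between classes, run with edgeR and library as a term on 5 pairs of classes, called 0 members in any pair. It called few genes at all, 0.65%, 0.0389%, 0.228% and 0.0198% between the unnamed clusters and the terminal effector, *Tcf7*-*Ccr7*, cycling and interferon-stimulated clusters, and 0.0522% between *Tcf7*-*Ccr7* and terminal effector clusters.

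*Tap2* was higher in both *Bcl3*-/- libraries than in both WT libraries in each of the 5 classes of T cell clusters, as were 23% (unnamed), 21.7% (terminal effector), 19.1% (*Tcf7*-*Ccr7*), 21.3% (cycling) and 19.9% (interferon-stimulated) of all genes tested. In terminal effector clusters it was at 67.5 and 84.4 CPM in the WT libraries and 100 and 171 in the *Bcl3*-/- libraries. In B-like clusters it was at 76.0, 62.9, 93.0 and 125 CPM in the same order, from 26, 19, 44 and 46 UMIs, and in macrophage-like clusters at 69.6, 75.3, 99.4 and 109 CPM. In the same 5 classes, on TMM-scaled values, 7, 8, 6, 5 and 7 of the 10 members had both *Bcl3*-/- libraries below both WT libraries. The same held for 20.3%, 20.2%, 18.8%, 19.5% and 18.3% of genes tested. These counts depend on the scaling. On CPM without TMM factors, as given in this paragraph, *H2-D1* and *B2m* were below in 0 of 7 classes of clusters. In terminal effector clusters *B2m* was then at 5087 and 4862 CPM in the WT libraries and 4676 and 4904 in the *Bcl3*-/- libraries. Droplets of the B-like clusters also held 479 to 685 CPM of *Cd8b1*, against 1950 to 2233 CPM in the unnamed T clusters, so these clusters also hold a T cell transcript. In the barcodes of at most 50 UMIs, *Tap2* was at 91.9, 71.6, 99.3 and 175 CPM in WT1, WT2, KO1 and KO2. The part of this free RNA in the differences of B-like and macrophage-like clusters was not tested.

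**Figure D2:**
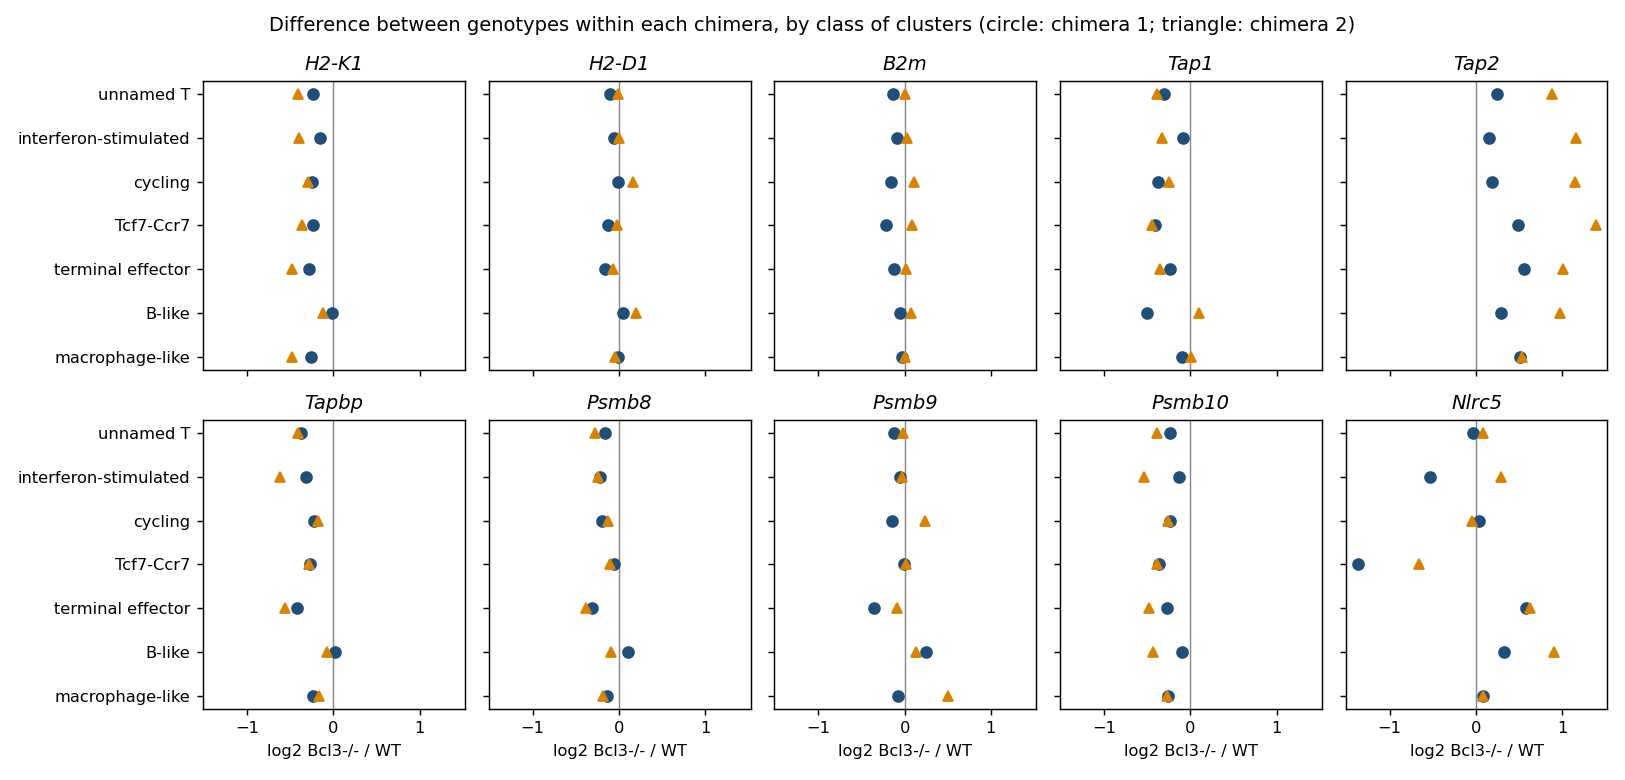
Log2 ratio of *Bcl3*-/- over WT CPM (x axis, 1 CPM added to both) for each member in each class of clusters (y axis), with a circle for chimera 1 and a triangle for chimera 2. *Tap2* lies right of 0 in 14 of 14 ratios, *H2-K1* and *Psmb10* left of 0 in 14 of 14. The ratios of a chimera come from the same pair of libraries and are not independent. The share of all genes with every ratio on the same side of 0 was not counted.

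Levels of *Tap1* and *Tap2* are set side by side by class and library in the plot of *Tap1* against *Tap2*. The mean level of both was highest in interferon-stimulated clusters among the 7 classes. In those clusters *Tap1* was at 389, 461, 367 and 368 CPM in WT1, WT2, KO1 and KO2, and *Tap2* at 159, 124, 177 and 278 CPM. WT2 thus had the most *Tap1* and the least *Tap2* of these libraries, and KO2 the most *Tap2*. Over the 20 sums of T cell classes by library, the Pearson correlation of log2(CPM + 1) was 0.15 between *Tap1* and *Tap2*, 0.96 between *Tap1* and *Psmb10*, and 0.94 between *Tapbp* and *Psmb8*. These sums share libraries and are no independent samples.

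**Figure D3:**
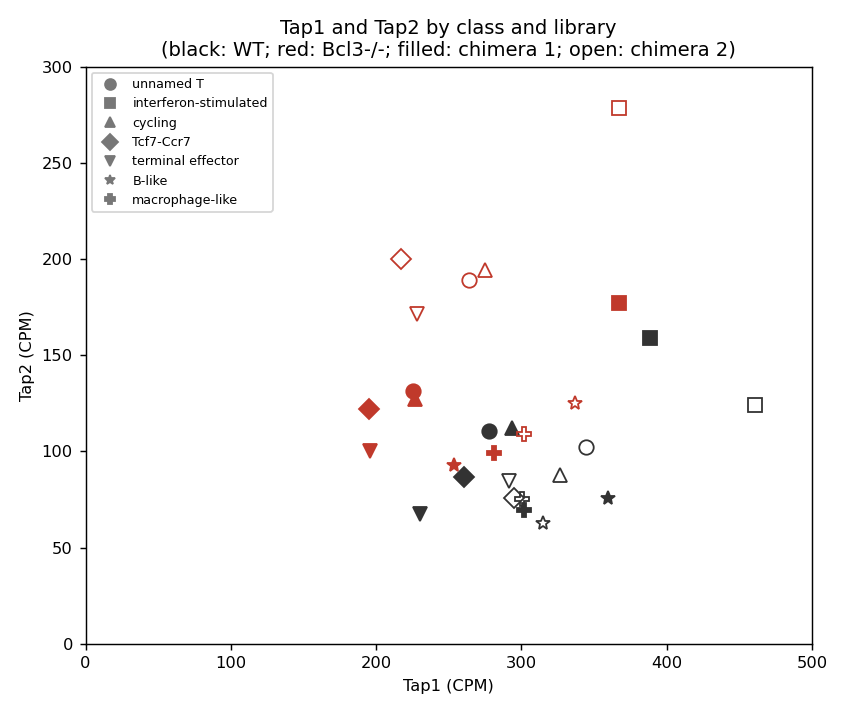
*Tap1* CPM (x axis) against *Tap2* CPM (y axis) for 7 classes of clusters in 4 libraries; black is WT, red *Bcl3*-/-, filled chimera 1, open chimera 2, and the shape gives the class. In each class the red points lie above the black ones, and the KO2 interferon-stimulated sum is the highest at 278 CPM of *Tap2*.

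*Nlrc5* was the member whose difference varied most between classes. In terminal effector clusters it was at 27.8 and 28.0 CPM in the WT libraries and 42.1 and 43.6 in the *Bcl3*-/- libraries, from 21, 50, 97 and 132 UMIs, so both *Bcl3*-/- libraries were above (log2 fold change 0.60, adjusted p = 0.207, edgeR, no block). That did not hold with naming at 1.5-fold, where WT1 had 40.0 CPM from 163 UMIs and KO1 39.6 CPM from 148 UMIs. In *Tcf7*-*Ccr7* clusters it was at 54.3, 55.9, 20.3 and 35.0 CPM, from 64, 53, 10 and 21 UMIs, so both were below (−0.95, adjusted p = 0.277, edgeR, no block). With naming at 1.5-fold KO1 had 39.0 CPM there, from 124 UMIs. The 95% Poisson intervals, which cover counting error only, were 41.8 to 69.3 CPM for WT1 and 9.75 to 37.4 CPM for KO1 in the latter clusters, which do not overlap, and 41.9 to 73.1 CPM for WT2 and 21.7 to 53.6 CPM for KO2, which do. The difference between the classes, 1.54 ± 0.33 on the log2 scale, had an adjusted p of 0.123 (edgeR with library as a term) and did not pass.

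The wider pathway was described from 67 other genes in 8 groups. Over all cells, none was called by edgeR with no block, where 0.363% of all genes were. An unadjusted p under 0.05 was found for 26 of the 67, against 15.6% of all genes. DESeq2 called 6, *Hspa5*, *Canx* and *H2-T23* among them, where it called 1.81% of genes. With the block, 18 of 67 were called lower and 3 higher over all cells, against the 9.65% of genes called in that fit. Within terminal effector clusters 3 were called lower with no block, where 0.808% of genes were, *Hspa5* (−0.72, adjusted p = 0.0490, edgeR) and *Ifngr1* (−0.69, adjusted p = 0.0285) among them. The median log2 fold change of the 67 was −0.08, and 41 of 67 were negative, against 48.5% of all genes tested. For the genes described next, over all cells, log2 fold changes are from the fit with no block and adjusted p-values from edgeR with the block.

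Genes that help class I molecules fold and load were among those called lower with the block. *Hspa5* (BiP), a chaperone of the endoplasmic reticulum, was at 243 and 310 CPM in the WT libraries and 186 and 206 in the *Bcl3*-/- libraries (log2 fold change −0.50, block adjusted p = 0.000666, edgeR). *Canx* (calnexin, −0.42), *Pdia3* (ERp57, −0.35) and *Calr* (calreticulin, −0.28) also fell in the block, and *Tapbpl*, a tapasin homologue, did not pass (0.14). Other class I heavy chains went both ways. *H2-Q4*, *H2-Q6* and *H2-T24* were called lower (−0.37, −0.34 and −0.78 with no block) and *H2-T23* (Qa-1), at 30.6, 25.4, 37.8 and 50.3 CPM in WT1, WT2, KO1 and KO2, was called higher (0.65, block adjusted p = 0.00580, edgeR). Of 98-base windows in the last 500 bases of transcripts, 24.4% of those of *H2-Q6*, 10.4% of those of *H2-T23* and 6.95% of those of *H2-Q4* also occur in another gene's transcripts, so their counts are uncertain. None of those of the 10 members do.

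All 15 genes of the constitutive proteasome group, which counts the assembly factor *Pomp* beside the subunits, had negative log2 fold changes over all cells. Their median was −0.20, and 48.5% of all genes tested were negative. With the block, 6 were called lower (*Psma2*, *Psma4*, *Psma6*, *Psma7*, *Psmb4*, *Psmb6*), where 9.65% of genes were called. Within terminal effector clusters 3 of the 15 were positive (median −0.09) and 0 were called with the block. In *Tcf7*-*Ccr7* clusters 3 were positive and 1 was called lower. In the unnamed, cycling and interferon-stimulated clusters 0 were positive. *Psmb6*, the constitutive subunit that *Psmb9* replaces, was at 312 and 327 CPM in the WT libraries and 251 and 246 in the *Bcl3*-/- libraries (−0.36, block adjusted p = 0.00403, edgeR). *Psmb5*, which *Psmb8* replaces, was at 257, 255, 226 and 219 CPM (−0.20), and *Psmb7*, which *Psmb10* replaces, at 148, 138, 130 and 132 CPM (−0.12), neither called. Shared windows, 32.7% for *Psmb5* and 8.31% for *Psma4*, leave the counts of these subunits uncertain too. The proteasome activator subunits *Psme1* (−0.24) and *Psme2* (−0.28) were called lower with the block and *Psme3* (−0.08) was not, though 48.4% of the windows of *Psme2* also occur in another gene's transcripts. No peptidase was called, among them *Erap1*, which trims peptides in the endoplasmic reticulum (−0.28).

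Among the regulators, *Irf2*, an antagonist of Irf1, was at 96.4, 88.9, 120 and 125 CPM in WT1, WT2, KO1 and KO2 (0.40, block adjusted p = 0.00309, edgeR), higher in both *Bcl3*-/- libraries. *Irf1* (−0.07), *Rfx5* (0.26) and *Rela* (0.10) were not called. The interferon gamma receptor chain *Ifngr1* was lower (−0.34, block adjusted p = 0.00677) and the kinase *Jak1* higher (0.24, block adjusted p = 0.0344, edgeR). Of 7 class II genes, which mark B cells and macrophages here, 1 was called with the block, *H2-Ab1* (−0.27), and *Cd74* was at 1325, 1387, 1426 and 1296 CPM.

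**Figure D4:**
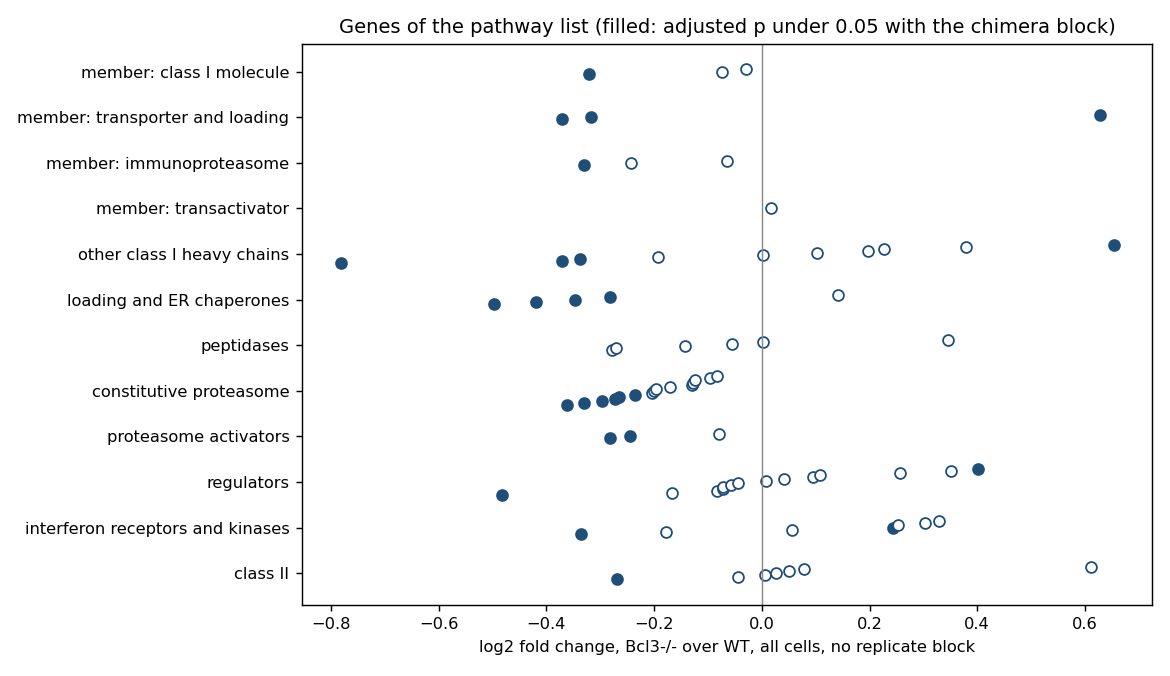
Log2 fold change of *Bcl3*-/- over WT over all cells (x axis, edgeR with no block) for each gene of the pathway list, by group (y axis); filled points have an adjusted p under 0.05 with the chimera block. All 15 genes of the constitutive proteasome group, the assembly factor *Pomp* included, lie left of 0, and *Tap2* (0.63) and *H2-T23* (0.65) lie farthest right.

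Other measures moved with the genotype. The 12 interferon-stimulated marker genes summed to 820 and 1046 CPM in the WT libraries and 654 and 777 in the *Bcl3*-/- libraries, with *Zbp1* the most abundant in all 4 libraries and none at 0. Of these 12, 8 were lower in both *Bcl3*-/- libraries over all cells and 0 higher, against 23.1% and 25.3% of all genes tested. With the block 9 were called lower (median log2 fold change −0.38), where 9.65% of genes were called, but 0 with no block. Over the T cell clusters 10 were lower in both *Bcl3*-/- libraries, against 22.2% of genes, with a median of −0.48. There 10 were called lower with the block, where 13.8% of genes were called, and 0 with no block. The 10 myeloid markers summed to 2789, 2650, 3746 and 3957 CPM, with *Lyz2* the most abundant in the WT and *S100a8* in the *Bcl3*-/- libraries and none at 0. Of the 9 that were tested, 3 were called higher and 3 lower with the block, where 9.65% of all genes were called. Neutrophil-like clusters of 107 and 101 cells passed 1% of the library in KO1 and KO2, while clusters of 43 and 32 cells with like levels of *S100a9* in WT1 and WT2 did not. The T cell sum, which leaves these clusters out, gave the member differences above. The terminal effector markers, led by *Gzma*, summed to 1336, 1661, 2366 and 2401 CPM and the cycling markers to 895, 953, 633 and 820 CPM in WT1, WT2, KO1 and KO2, so the first were higher and the second lower in both *Bcl3*-/- libraries. Erythroid markers were uneven, at 60.3, 94.8, 9.35 and 218 CPM. The part of the interferon-stimulated, terminal effector and cycling genes in the member differences was not tested.

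Member levels were then described by class of clusters, as log2 ratios to the unnamed T clusters of the same library (mean ± SD over n = 4 libraries, with no test, since classes were found in the same cells). Interferon-stimulated clusters had higher levels of all 10 members in 4 of 4 libraries. The ratios were largest for *Tapbp* (0.54 ± 0.14), *Tap1* (0.52 ± 0.12) and *Tap2* (0.45 ± 0.12), lay between 0.34 and 0.39 for *Psmb8*, *Psmb9*, *Psmb10* and *Nlrc5*, and were least for *B2m* (0.19 ± 0.04), *H2-K1* (0.17 ± 0.04) and *H2-D1* (0.08 ± 0.03). The order of the first 3 is within their SDs.

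Terminal effector clusters were lower than the unnamed clusters in 4 of 4 libraries for 7 members, with ratios of −0.37 ± 0.24 for *Tap2*, −0.31 ± 0.07 for *Tapbp*, −0.30 ± 0.08 for *Psmb10*, −0.30 ± 0.09 for *Psmb8*, −0.27 ± 0.13 for *Psmb9*, −0.23 ± 0.03 for *Tap1* and −0.12 ± 0.03 for *B2m*. The heavy chains *H2-K1* (−0.01 ± 0.04) and *H2-D1* were within their spread. *H2-D1* was higher than in the unnamed clusters in WT1 (4120 against 4081 CPM) and WT2 (4652 against 4522 CPM). It was lower in KO1 (3688 against 3811 CPM) and KO2 (4441 against 4501 CPM). *Nlrc5* was lower than in the unnamed clusters in WT1 (27.8 against 39.6 CPM) and WT2 (28.0 against 40.3 CPM). In KO1 (42.1 against 38.8 CPM) and KO2 (43.6 against 42.5 CPM) it was higher. *Tcf7*-*Ccr7* clusters had less *H2-D1* (−0.28 ± 0.03) and *Psmb10* (−0.24 ± 0.05) in 4 of 4 libraries, while *Tapbp* (0.06 ± 0.07) was within its spread. Cycling clusters had more *Psmb9* in 4 of 4 libraries (0.34 ± 0.11) and less *Nlrc5* (−0.24 ± 0.10), *H2-K1* (−0.19 ± 0.06), *H2-D1* (−0.15 ± 0.08) and *B2m* (−0.13 ± 0.05). *Psmb8* (0.08 ± 0.07) and *Psmb10* (0.01 ± 0.08), the other immunoproteasome subunits, were within about their spread there.

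Among clusters of other cell types, B-like clusters (105 to 134 cells a library) were lower in *Tap2* (−0.58 ± 0.09), *H2-D1* (−0.54 ± 0.10), *Psmb10* (−0.52 ± 0.21), *B2m* (−0.46 ± 0.06) and *H2-K1* (−0.37 ± 0.15) in 4 of 4 libraries, but not in *Tap1* (0.19 ± 0.23). Macrophage-like clusters (110 to 156 cells) were lower in *Tap2* (−0.57 ± 0.19), *H2-K1* (−0.43 ± 0.12) and *H2-D1* (−0.39 ± 0.08), with *B2m* within its spread (0.03 ± 0.11). The 2 neutrophil-like clusters had the lowest *Psmb10* (188 CPM in KO1 and 177 CPM in KO2), against 349 and 360 CPM in the unnamed T clusters of those libraries. Clusters of 43 cells in WT1 and 32 in WT2, under 1% of those libraries and so unnamed, were as rich in *S100a9*, a neutrophil gene (56398 and 57739 CPM, against 62000 and 77694 in KO1 and KO2), and had 267 and 263 CPM of *Psmb10*. The 50 plasma-like cells of WT1 had 16530 CPM of *B2m*, against 5445 CPM in the unnamed T clusters, with *H2-K1* (2866 CPM) and *H2-D1* (4022 CPM) close to the T cell levels. The other libraries held clusters under 1% of their cells, left unnamed, that also stood out in *Jchain*, a plasma cell gene (31773 CPM in WT2, 33163 in KO1 and 45602 in KO2, against 29581 in the WT1 cluster). In these 78, 40 and 48 cells *B2m* was at 13721, 13769 and 13661 CPM, so high *B2m* went with high *Jchain* in all 4 libraries. *Cd8b1* reached 739 CPM in the macrophage-like clusters.

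**Figure D5:**
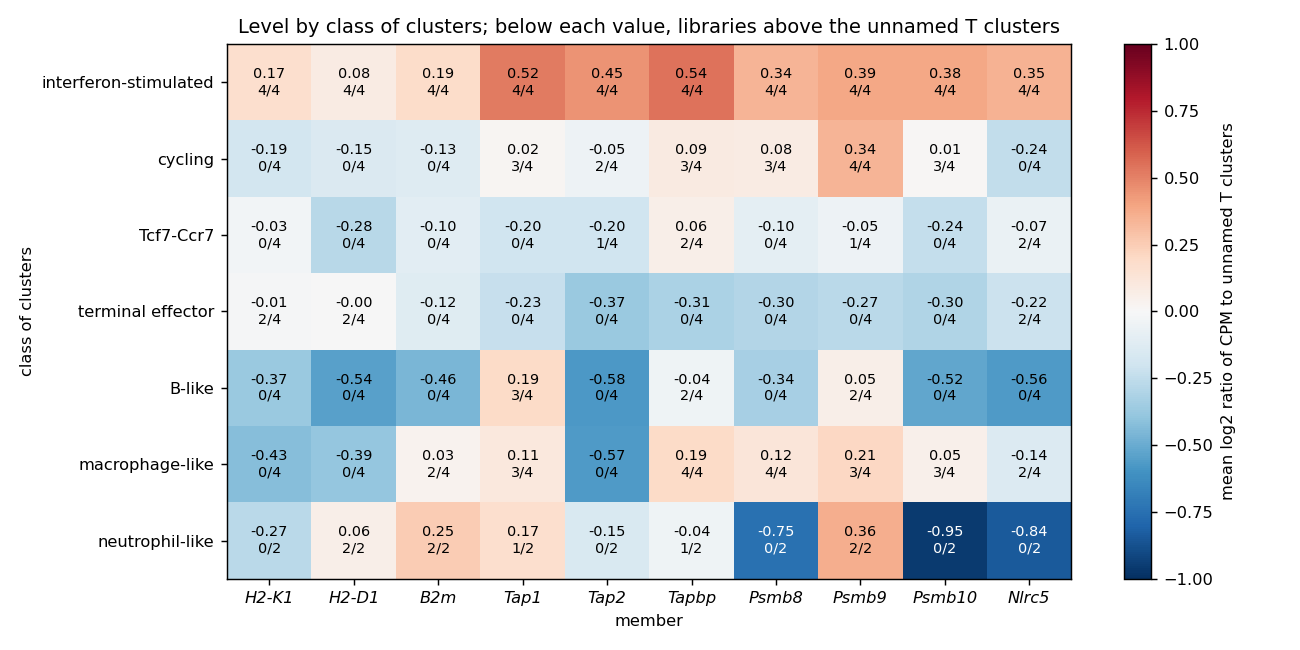
Mean log2 ratio of CPM to the unnamed T clusters of the same library, for each class of clusters (rows) and member (columns), in red above and blue below 0; the lower figure in each field is the number of libraries above 0 out of those with the class. The top row is above 0 in 4 of 4 libraries for all members, and the neutrophil-like row rests on 2 libraries.

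The order of levels over T cell classes was read for single members. *Psmb10* was at 520 ± 83.3 CPM in interferon-stimulated, 400 ± 39.8 in cycling, 397 ± 55.6 in unnamed, 337 ± 52.8 in *Tcf7*-*Ccr7* and 324 ± 61.0 in terminal effector clusters (mean ± SD, n = 4). Cycling and unnamed clusters did not differ beyond their spread, nor did *Tcf7*-*Ccr7* and terminal effector clusters. *B2m* went from 6023 ± 161 CPM in interferon-stimulated to 5297 ± 218 in unnamed, 4939 ± 329 in *Tcf7*-*Ccr7*, 4882 ± 168 in terminal effector and 4836 ± 301 in cycling clusters, where the last 3 were within one SD of each other. *Psmb9* was at 420 ± 15.4 CPM in interferon-stimulated and 407 ± 33.7 in cycling clusters, which did not differ beyond their spread, then 321 ± 11.8 in unnamed, 309 ± 15.7 in *Tcf7*-*Ccr7* and 267 ± 32.1 in terminal effector clusters.

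Transcripts of the class I molecule were found in nearly all cells. After thinning each cell to 1000 UMIs, which left out 282 shallower cells, *B2m* had a UMI in 99.3% ± 0.13 of cells, *H2-D1* in 97.6% ± 0.69 and *H2-K1* in 91.2% ± 3.1 (SD, n = 4 libraries). *Psmb8* was found in 72.4% ± 3.3, *Psmb10* in 32.1% ± 3.4, *Psmb9* in 28.1% ± 0.96, *Tapbp* in 25.2% ± 3.5, *Tap1* in 24.7% ± 3.3, *Tap2* in 12.1% ± 3.7 and *Nlrc5* in 3.97% ± 0.24. Without thinning, *Nlrc5* was found in 8.66% to 14.6% of the cells of a library. No cell type that should lack these genes was at hand to set a background for the shares, and free RNA holds all of them.

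The genes most like each member over 31 sums of classes by library, among 7073 genes of at least 10 CPM, were listed as a description (Pearson r of log2(CPM + 1); the sums share libraries). *Psmb8* and *Psmb10* were each other's nearest gene (0.90). *H2-K1* was nearest to the heavy chain *H2-Q7* (0.86), then *Sec62* (0.86) and *Os9* (0.85). *H2-D1* was nearest to *Glipr2*, *Selplg* and *Tmbim6* (0.83 to 0.81), and *B2m* to *Selk*, *Derl1* and *Edem1* (0.90 to 0.85), though over the 20 T cell sums *Selk* had an r of 0.24 with *B2m*. *Tap1* was nearest to *Cd86*, *Ifi35* and *Samd9l* (0.80 to 0.76), *Tapbp* to *Tor1aip1*, *Psmb8* and *Ifi35* (0.83 to 0.78), and *Psmb9* to the interferon-stimulated genes *Cmpk2*, *Isg15* and *Ifit1* (0.71 to 0.64). *Psmb8* was followed by *Tmem192* (0.89) and *Fam96b* (0.86), and *Psmb10* by *Pla2g16* (0.90) and the proteasome subunit *Psma2* (0.85). *Tap2* stood with none of these, nearest to *Gm12840*, *Rnaset2b* and *Mob3a* (0.84 to 0.82), and *Nlrc5* was nearest to *Clec2d*, *Cant1* and *Trpc4ap* (0.73 to 0.69).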

How the data were processed

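Sorted GP33-specific CD8+ T cells of 2 chimeras were measured as 4 libraries with the 10x Genomics 3′ v2 kit. Per the submitters' processing notes and the methods, the authors demultiplexed with bcl2fastq 2.17 and made UMI count matrices with Cell Ranger 2.2.0 on mm10; the deposited values are whole-number counts per gene and barcode, not normalized, over all barcodes. Barcodes were taken as cells at 500 detected genes or more, unless mitochondrial UMIs passed 10%, the authors' own filter. Doublets were not called; clusters under 1% of a library (241 cells in all) were left out of class values, after the study's rule.

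UMIs were summed per library and tested over all genes by the quasi-likelihood test of edgeR 4.0.16, after filterByExpr and TMM scaling, with Benjamini-Hochberg adjustment, or DESeq2 1.42.0 as an alternative. Same-numbered libraries come from the same chimera by the labels, and deviated together (r = 0.293 over 6862 genes), so chimera served as a replicate block. With 2 libraries a genotype, p-values rest on the spread of 4 libraries. With the block, less of that spread is left to each gene, and p-values lean more on spread pooled over genes. In simulated data with 200 changed genes for the comparison over all cells, the fit with no block recovered 78.0% of 2-fold and 97.0% of 4-fold changes, the fit with the block 82.0% and 98.0%. Recovery of changes under 2-fold, which the member differences over all cells were, was not tested. Cells were clustered per library with Seurat 5.3.0 (2000 variable genes, of which 14 to 16 pathway genes were removed, 15 principal components, resolution 0.8). A cluster was named by at least 3 markers 2-fold above other cells and in 10% of its cells, with 1 among its 10 leading genes. Binomial and Poisson intervals and all counts cover counting error only.

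Gene positions come from GENCODE vM21 (GRCm38); 353 of 27998 gene IDs were not in it. Genes named by rule are the members, the pathway list, *Bcl3*, and the 3 genes nearest to each member; others are markers of the cell type lists or leading genes of clusters, named to describe these. *Jchain* and *S100a9* in the clusters under 1% were chosen after their values were seen. The members, lists and tests were chosen with earlier results of these data known. The block within classes and the test between classes were added after the data were seen. One gene of the pathway list is not reported here by name.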

Additional observations from a re-analysis of the deposited data

Results flagged for a closer look

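*Nlrc5* was higher in both *Bcl3*-/- libraries in terminal effector clusters (log2 fold change 0.60) and lower in both in *Tcf7*-*Ccr7* clusters (−0.95), so that the samples moved opposite ways in these classes. The difference of 1.54 on the log2 scale had an adjusted p of 0.123 from edgeR with library as a term, and did not pass. The *Tcf7*-*Ccr7* values rest on 10 UMIs in KO1 and 21 in KO2. The contrast depends on how clusters are named: with naming at 1.5-fold *Nlrc5* in terminal effector clusters was at 40.0 CPM in WT1, not below the 39.6 CPM of KO1, and in *Tcf7*-*Ccr7* clusters of KO1 it was at 39.0 CPM in place of 20.3 CPM.

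The *Bcl3*-/- over WT ratio of 2 members had opposite signs in the chimeras, over all cells. *Psmb9* had a log2 ratio of −0.16 in chimera 1 and 0.03 in chimera 2, a difference of 0.19, and *Nlrc5* −0.06 and 0.09, a difference of 0.15. With 1 pair of libraries in each chimera, these differences were not tested.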

How the results depend on the processing

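Over all cells, the count of genes called, 42 with no block, was 1116 with the replicate block, 209 by DESeq2, 80 with library size only, 83 with equal cells of 1000 UMIs and 11 with the same class weights in every library. Leaving out 1 library gave 40 to 228, the latter without WT1, and 176 without KO1. The count of members called, 0 with no block, was 5 with the replicate block and 2 by DESeq2, and 0 to 1 on leaving out a library (*Tap2* without KO1).

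In the T cell clusters, 30 genes became 1535 with the replicate block, 172 by DESeq2 and 6 with no filter on low counts, and 18 to 215 on leaving out a library. They were 112 without WT1, 18 without WT2, 215 without KO1 and 87 without KO2. The 0 members became 6 with the replicate block, 2 by DESeq2 and 0 to 1 on leaving out a library. Within classes, the replicate block called 795 genes and 6 members (unnamed), 312 and 5 (terminal effector), 92 and 1 (*Tcf7*-*Ccr7*), 315 and 3 (cycling), and 203 and 3 (interferon-stimulated).

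*H2-K1*, *B2m*, *Tap1*, *Tap2*, *Tapbp*, *Psmb8* and *Psmb10* kept their direction in 12 of 12 alternatives over all cells and 8 of 8 in T cell clusters. On leaving out a library, though, *Tap2* ranged from 0.37 to 0.84 over all cells and 0.35 to 0.86 in T cell clusters, *H2-K1* from −0.46 to −0.17 and −0.47 to −0.16, and *B2m* from −0.14 to −0.021 and −0.11 to −0.012. The sign of small differences changed. Over all cells, on leaving out a library, *Nlrc5* ranged from −0.027 to 0.055, *Psmb9* from −0.15 to 0.011 and *H2-D1* from −0.10 to 0.036. In T cell clusters *Nlrc5* ranged from −0.040 to 0.069 and *H2-D1* from −0.11 to 0.050. With the same class weights *Nlrc5* was −0.0050. The cause was not tested.

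The median log2 ratio of the 10 members to the unnamed T clusters was 0.35 in interferon-stimulated clusters (0.40 both at resolution 0.4, over 3 libraries, and with the libraries clustered together), and −0.23 in terminal effector clusters (−0.17 with naming at 1.5-fold, −0.30 with 30 principal components, −0.33 clustered together). It was near 0 in cycling clusters (−0.01, or −0.031 to 0.017 on leaving out a library, above 0 without WT2) and in macrophage-like clusters (0.04, or −0.0063 to 0.10 on leaving out a library, below 0 without KO1, and −0.017 clustered together). At resolution 0.4 no terminal effector cluster was named in WT1 and no interferon-stimulated or *Tcf7*-*Ccr7* cluster in KO1.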
